A study of Drosophila melanogaster with 2 samples.

Results

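The genes described here are 32 genes of DNA replication and cell cycle control in Drosophila melanogaster, out of 13945 protein-coding genes on the main chromosome arms. They were chosen by name, and all 32 were found in the Ensembl 115 annotation. For each, the peak summits within 500 bp of any annotated transcription start site (TSS) were read from chromatin immunoprecipitation sequencing (ChIP-seq) peak lists. The samples were 2 biological replicates of whole embryos of mixed sex, 0 to 24 h old, from a transgenic line that stably expresses CG7987 with GFP at its C-terminal end. There was 1 group and no untagged embryos, and each list was called against a control library. The assay and antibody labels name a ChIP of CG7987, while a free-text label of each names an input control. They are read here as ChIP, and the values describe where signal was found. What drives the transgene was not stated in the labels used.

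Replication starts at origins bound by the origin recognition complex (ORC), onto which the protein encoded by dup (Cdt1 in other species) helps to load the ring-shaped MCM helicase. Geminin blocks that loading outside the proper phase. The kinases Cdk1, Cdk2 and Cdk4 act with cyclins. E2F factors act with their partner Dp at genes of S phase and are bound by Rb-family proteins. In the fly embryo early cycles run on maternal product with no gap phases, and later cycles depend on stg and on dap for the exit from division. Whole embryos mix cell types and stages, so a weak signal in many cells and a strong signal in few cells cannot be told apart.

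Of the 32 genes, 11 had a summit of the list kept by irreproducible discovery rate (IDR) within 500 bp of a TSS (34.4%, exact 95% interval 18.6 to 53.2), against 20.5% of all protein-coding genes. Such genes are called bound below. They were Orc1, Orc4, dup, E2f1, E2f2, Dp, CycA, CycB, CycB3, CycE and dap. Among the 14 replication genes 3 were bound (21.4%, exact 95% interval 4.66 to 50.8). Among the 18 cell cycle control genes 8 were bound (44.4%, interval 21.5 to 69.2), and both intervals overlap widely. These classes also differ in their number of TSSs, as given further on. The count was uneven by role. Cyclins were bound in 4 of 5 cases (interval 28.4 to 99.5%) and E2F and Rb genes in 3 of 5 (14.7 to 94.7%). None of the 5 MCM ring genes (0 to 52.2%) and none of the 3 kinase genes (0 to 70.8%) was bound. Against the 20.5% of all protein-coding genes, groups of 5 and 3 are too small for a count of 0 to stand out. Taken as the cyclins with E2f1, E2f2 and Dp, the count was 7 of 8, with CycD the exception. ORC, MCM ring and loading genes, without the fork genes Mcm10 and PCNA, had 3 of 12. These are counts on a gene list chosen with earlier results known, and no test of the list was made.

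**Figure D1:**
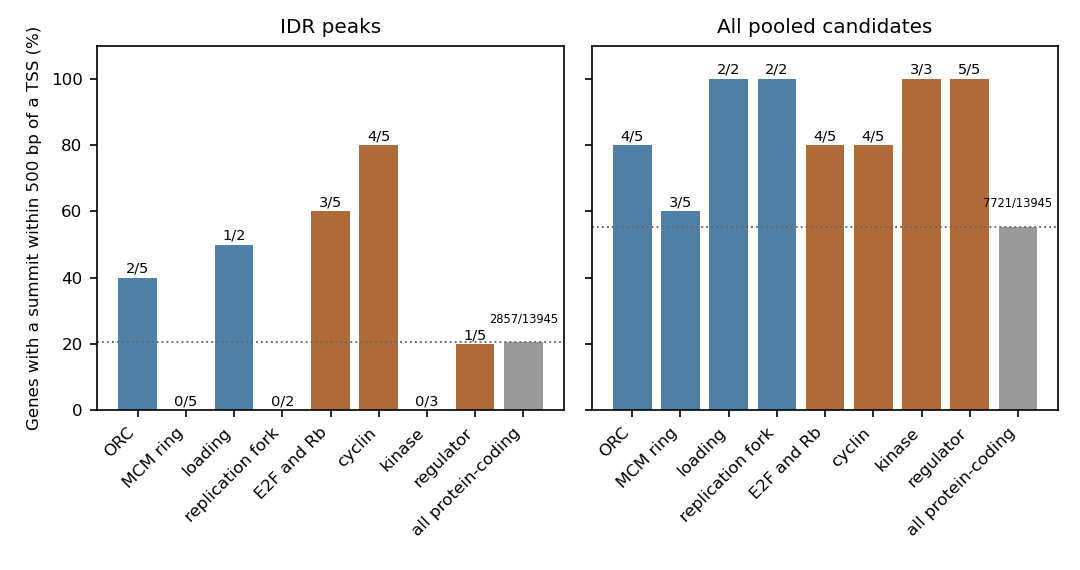
Share of genes (%) with a summit within 500 bp of a TSS, by role, for IDR peaks (left) and all pooled candidates (right). Blue bars are replication roles, brown bars cell cycle control roles, the grey bar and dotted line all protein-coding genes, and labels give bound genes over genes. Cyclins reached 4 of 5 in the IDR list, while MCM ring and kinase genes were at 0 there and had candidates in the right panel.

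The signal of a peak is the strength given by the authors' caller. In the IDR list of 4410 peaks it ran from 139 to 11622 with a median of 201. The pooled candidate list and each replicate list held 30000 peaks, and the weaker of these may be background. The replicate lists are on different scales, since the peak ranked 4410 had a signal of 49.6 in replicate 1 and 95.9 in replicate 2. Ranks are therefore given beside signals. In the pooled candidate list 27 of the 32 genes had a summit in the window (84.4%, exact 95% interval 67.2 to 94.7), against 55.4% of all protein-coding genes. The shares of replication and cell cycle control genes were closer there, 11 of 14 and 16 of 18. In the replicate 1 list 28 of the 32 genes had such a summit, against 54.2% of protein-coding genes, and in the replicate 2 list 30 of 32, against 55.8%. Mcm3 and CycD, both on X, had none in any list.

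**Figure D2:**
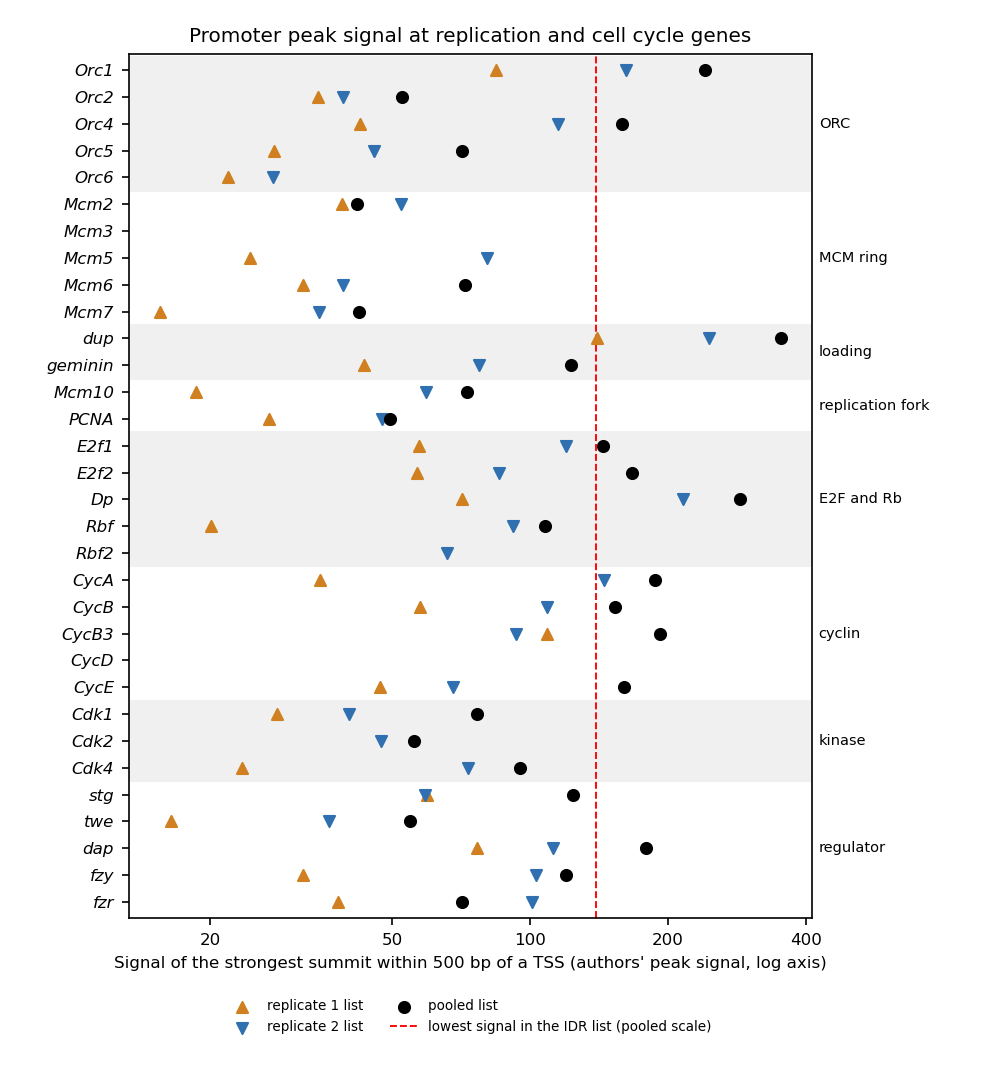
Signal (log axis) of the strongest summit within 500 bp of a TSS for each of the 32 genes, in the replicate 1 list (upward triangles), the replicate 2 list (downward triangles) and the pooled list (circles). The dashed line is the lowest IDR signal, 139, and applies to the circles: 11 genes lie to its right, led by dup at 353. A gene without a mark had no candidate in that list.

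Among the genes that encode ORC, the complex that binds origins, Orc1 and Orc4 were bound. The Orc1 summit (2R, 7525764) lay 48 bp upstream of its TSS, with a pooled signal of 241 and rank 1513. Its overlapping replicate peaks ranked 1512 in replicate 1 (signal 84.1) and 1655 in replicate 2 (162), so the replicates placed it alike. That summit is the outermost of 7 IDR summits that follow each other at steps of no more than 5 kb around the gene Drat, and lies 5192 bp from the strongest summit of the whole list, which has a signal of 11622. Whether the height of that cluster bears on the Orc1 peak was not tested, and without the cluster 10 of the 32 genes and 2 of the 14 replication genes were bound. The Orc4 summit (2R, 24797464) lay 50 bp upstream, with a signal of 159 and rank 3473. It was less even, at rank 5875 in replicate 1 (signal 42.4) and 3231 in replicate 2 (115). Orc2 and Orc5 had candidates only, with pooled signals of 52.5 and 70.9. Orc6 had a candidate in each replicate list (21.8 in replicate 1 and 27.4 in replicate 2) and none in the pooled list. Orc3, the remaining subunit and not one of the 32, had a pooled candidate of 88.2.

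No MCM ring gene among the 32 had a pooled signal above 71.9. Mcm2 (41.8), Mcm6 (71.9) and Mcm7 (42.2) had pooled candidates at ranks 23179, 11662 and 22968. Mcm5 had a candidate in each replicate list, of 24.4 in replicate 1 and 80.5 in replicate 2, and none in the pooled list. The remaining ring gene, dpa, which encodes Mcm4 and is not one of the 32, was bound with a signal of 166 at 90 bp downstream of its TSS. With dpa the ring had 1 bound gene of 6. The fork genes Mcm10, which joins the helicase to the fork, and PCNA, the sliding clamp, had pooled candidates of 72.7 and 49.3.

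Within 500 bp of a TSS, the strongest peak of the 32 genes was at dup. Its summit (2R, 15380703) had a signal of 353 and rank 667, with 140 and rank 429 in replicate 1 and 246 and rank 686 in replicate 2. It lay 89 bp upstream of the nearer dup TSS and only 21 bp upstream of the TSS of SRPK, a protein kinase gene on the opposite strand, so it cannot be assigned to dup alone. A weaker summit of 143 lay at 15380915, 73 bp downstream of the other dup TSS. It ranked 4083 in replicate 2, while the overlapping replicate 1 peak ranked 19830 with its summit 150 bp away. The gene of the loading inhibitor, geminin, fell just short of the IDR list, with a pooled signal of 123 and rank 5406 at 20 bp downstream of a TSS.

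All 3 genes of the E2F heterodimers were bound, and both Rb-family genes were not. The E2f1 summit (3R, 21660917) had a signal of 144 and rank 4129, near the end of the list, with rank 8934 in replicate 1 (32.9) and 2935 in replicate 2 (120). It lay 46 bp upstream of the outermost of 5 E2f1 TSSs, and inner TSSs had pooled candidates of up to 92.8. The E2f2 summit (2L, 21156257) had a signal of 167, at rank 3473 in replicate 1 (56.5) and 5386 in replicate 2 (85.7). It lay 25 bp upstream of the inner E2f2 TSS, in the 5′ UTR of the longer transcript, and 31 bp upstream of the opposite gene Mpp6.

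The sequences at E2f1 and E2f2 are given on the strand of the gene, 5′ to 3′, from the RefSeq sequence of assembly Release 6 (dm6), since both genes encode factors of the family whose sites are searched further on. Capitals mark matches to any of the searched words on either strand. The E2f1 stretch is chr3R:21660872-21660967, minus strand, and ends at the base before the TSS. It held no searched word. The E2f2 stretch is the 30 bases of chr2L:21156247-21156276, minus strand, around the summit.
E2f1: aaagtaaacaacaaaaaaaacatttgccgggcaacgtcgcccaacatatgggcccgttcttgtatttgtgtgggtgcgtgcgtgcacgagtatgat
E2f2: TATCGtcgtggcagcgtcgctttgccacac

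Dp, the partner of both, carried 3 IDR summits on 2R. The one at 13223410 had a signal of 288, at rank 2398 in replicate 1 (67.6) and 894 in replicate 2 (216). At 13222386 the signal was 245, at rank 2185 in replicate 1 (71.0) and 1405 in replicate 2 (175). At 13223974 it was 195, at rank 4062 in replicate 1 (52.1) and 1270 in replicate 2 (184). Each of the 3 matched a peak within the first 4410 ranks of both replicate lists. The summit at 13222386 lay 47 bp upstream of the outermost Dp TSS, in the 5′ UTR of Fsn, an F-box protein gene on the opposite strand, and 48 bp upstream of another Fsn TSS. The remaining summits lay in a Dp intron. Rbf had a pooled candidate of 108. Its candidates were at rank 19990 in replicate 1, 83 bp downstream of the TSS, and at rank 4772 in replicate 2, 88 bp upstream. Rbf2 had a candidate in replicate 2 alone, of 65.8.

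Of the cyclins, CycB3, CycA, CycE and CycB were bound, with signals of 192, 187, 160 and 153. The summit of CycB3, a mitotic cyclin gene, lay at 24870905 on 3R, 89 bp upstream of the TSS. It ranked far higher in replicate 1, at 845 (signal 109), than in replicate 2, at 4673 (92.9). CycA, which acts in S phase and mitosis, showed the opposite. Its summit (3L, 11833412) lay 166 bp downstream of the TSS in the 5′ UTR and ranked 2057 in replicate 2 (145). The overlapping peak of replicate 1 ranked 8178 (34.8), with its summit 160 bp away, towards the TSS. CycE is the cyclin of S-phase entry. Its summit (2L, 15747012) lay 402 bp upstream of an inner TSS and inside an intron, at rank 5719 in replicate 1 (43.0). The overlapping replicate 2 peak ranked 4364 (96.4), but its summit was 177 bp away and outside the window, and the replicate 2 summit inside a CycE window, at the outermost TSS, ranked 7660 (67.7). The IDR summit was lost with a window of 250 bp. The outermost CycE TSS had a pooled candidate of 117 and rank 5826. CycD, the partner of Cdk4, had no candidate, and the nearest IDR summit was 38718 bp from its TSS.

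The windows of 101 bases centred on the CycB3 and CycE summits are given as unlike examples and do not stand for the other bound sites. That of CycB3, chr3R:24870855-24870955, holds core promoter motif 1. That of CycE, chr2L:15746962-15747062, holds a TATA word and a CGATA word in A and T rich sequence. The stretch of 101 bases before the CycA TSS, chr3L:11833579-11833679, holds the DNA replication-related element (DRE) 11 bp upstream of that TSS, 174 bp from the IDR summit and 28 bp from a weaker pooled candidate. All are on the minus strand, printed as for E2f1.
CycB3: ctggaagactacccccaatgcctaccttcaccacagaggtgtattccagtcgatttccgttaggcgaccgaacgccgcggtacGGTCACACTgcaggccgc
CycE: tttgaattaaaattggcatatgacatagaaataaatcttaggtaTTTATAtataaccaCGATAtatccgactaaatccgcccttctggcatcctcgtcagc
CycA: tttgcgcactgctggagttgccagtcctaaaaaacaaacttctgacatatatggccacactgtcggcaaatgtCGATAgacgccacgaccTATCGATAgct

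CycB, whose product joins Cdk1 in mitosis, had its summit (2R, 22807019) 71 bp upstream of the outermost TSS. The matched peaks ranked 3369 in replicate 1 (57.3) and 3523 in replicate 2 (109), the most even of the bound cyclins.

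The kinase genes had only candidates within 500 bp of a TSS. Cdk1, the mitotic kinase, had a pooled signal of 76.4, Cdk2 one of 55.6 with no replicate 1 candidate, and Cdk4 one of 94.8. Cdk4 was the only unbound gene with IDR summits inside its body, at 16584097 on 2R (signal 392, 3264 bp from the nearest Cdk4 TSS) and at 16581499 (144, 666 bp from it). Another IDR summit lay upstream of the gene, at 16578847 (168, 623 bp from the outermost TSS). Cdk4 therefore counted as bound with a window of 1000 bp. Of the regulators, dap, the inhibitor of CycE and Cdk2, was bound with a signal of 179 at 12 bp downstream of its TSS (2R, 9712333), at rank 1843 in replicate 1 (76.5) and 3360 in replicate 2 (112). The Cdc25 phosphatase gene stg (124, rank 5309) and fzy (120, rank 5626), which activates the anaphase promoting complex, fell just below the IDR list. The other Cdc25 gene, twe (54.7), and the other activator gene, fzr (70.8), were further down. The stg gene ranked 3132 in replicate 1, and fzy and fzr ranked 3880 and 4053 in replicate 2, which puts each within the 4410 strongest peaks of that replicate alone.

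**Figure D3:**
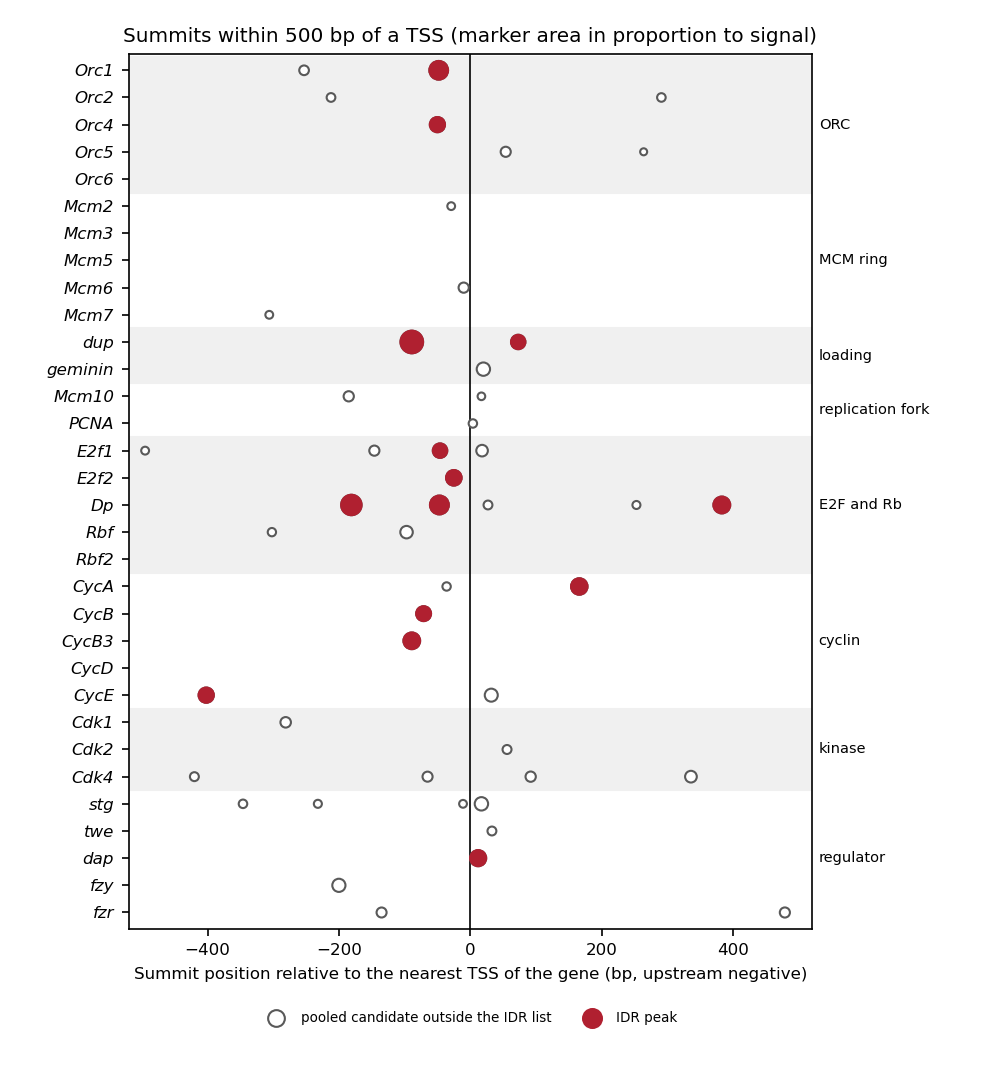
Position of every summit within 500 bp relative to the nearest TSS of its gene (bp, upstream negative), for IDR peaks (filled) and pooled candidates outside that list (open), with marker area in proportion to signal. Of the 14 filled marks, 10 lie upstream, and the CycE mark at -402 and the Dp mark at 383 stand farthest out.

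Together the 11 genes carried 14 IDR summits. Of these, 6 lay in an annotated 5′ UTR (both of dup, and those of E2f2, CycA, dap and the outer Dp TSS), 3 in introns of Dp and CycE, and 5 outside genes. By distance, 10 lay upstream of the nearest TSS of the gene and 10 lay within 100 bp of it. Over all 2431 IDR summits in the window of a protein-coding gene, each set against its nearest such TSS, 67.5% lay upstream and 64.1% within 100 bp. The signals were modest. The strongest summit of each bound gene had a median signal of 179 over the 11 genes, against 208 over 2846 other bound protein-coding genes, and 10 of the 14 summits ranked below 2205, in the weaker part of the IDR list. Among the 2205 strongest peaks only dup, Dp and Orc1 remained, 3 of 32 genes (9.38%), against 10.9% of protein-coding genes. Only Dp of these is a cell cycle control gene, so the higher share of that class was not seen there. In the pooled list the strongest candidates had a median of 120 over 27 of the 32 genes, against 110 over 7694 other genes.

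Every one of the 14 IDR peaks was overlapped by a candidate of each replicate, as were 98.5% of all IDR peaks. A summit within 100 bp in each replicate was found for 11 of the 14, against 87.3% of all IDR peaks. By their strongest window summit, 6 of the 32 genes ranked within the first 4410 peaks of both replicates, against 13.6% of protein-coding genes. All 6 were bound, as were 1830 of the 1891 protein-coding genes that ranked so. The replicate 1 list cut at that rank gave 9 genes, against 19.7% of protein-coding genes. The replicate 2 list cut likewise gave 10 genes, against 20.6%. Each of these lists shared 8 genes with the 11. Replicate 2 lost E2f2, CycB3 and CycE and gained fzy and fzr, and replicate 1 lost Orc4, CycA and CycE and gained stg. E2f1 stayed within the replicate 1 list through a summit at an inner TSS, with a signal of 57.1 and rank 3396. In replicate 2 its strongest summit, of rank 2935, lay at the outermost TSS. E2f1 is therefore one of the 6 through summits at different TSSs, and the replicate 1 peak matching its IDR summit ranked 8934.

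**Figure D4:**
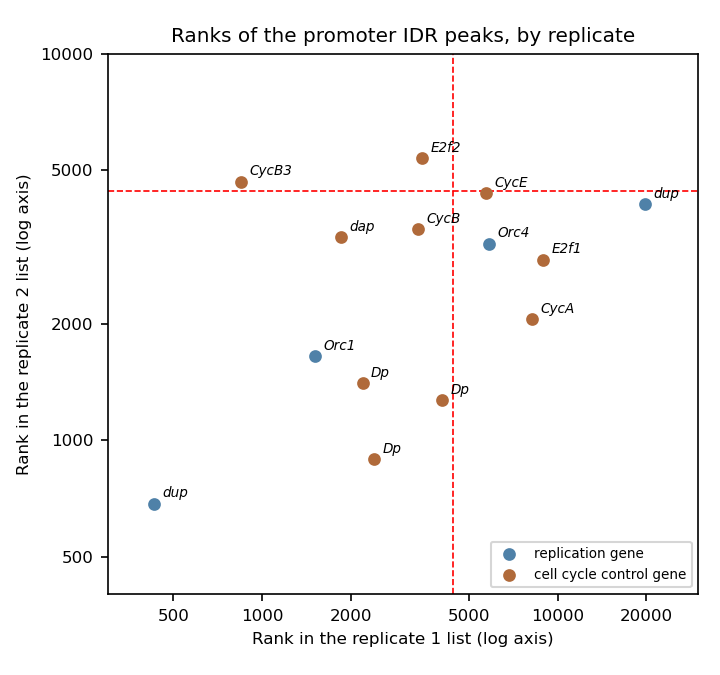
Rank of the matched peak of each replicate, in replicate 1 (horizontal) and replicate 2 (vertical), both on log axes, for the 14 IDR summits at the bound genes. Dashed lines mark rank 4410. The main dup summit is near the top of both lists (429 and 686), CycB3 is high in replicate 1 alone, and CycA and E2f1 are high in replicate 2 alone.

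Features of the annotation moved with the counts. Of the 20 genes with 1 TSS, 5 were bound, against 15.2% of protein-coding genes with 1 TSS. Of the 7 genes with 2 TSSs, 2 were bound (28.6%), against 29.6%. Of the 5 genes with 3 or more TSSs, E2f1, Dp, CycB and CycE were bound and Cdk4 was not (80.0%), against 47.3%. All 5 are cell cycle control genes, and no replication gene had more than 2 TSSs. The replication and cell cycle control classes therefore differ in TSS number as well as in role. An opposite-strand TSS of another protein-coding gene lay within 500 bp at 11 of the 32 genes, and 3 of these were bound (27.3%), against 35.4% of all such genes. At the other 21 genes 8 were bound (38.1%), against 14.7%. By chromosome arm, 6 of 10 genes on 2R were bound (22.1% of protein-coding genes there), 2 of 7 on 2L (20.1%), 1 of 2 on 3L (21.9%) and 2 of 8 on 3R (21.5%). On X the count was 0 of 5 (Mcm3, Mcm6, Rbf, CycD and fzr), against 16.0%. With X signals divided by 0.75 and the peaks ranked again, none of these 5 entered the list. E2f1 on 3R, with its signal of 144 unchanged, dropped out, which left 10 bound genes, against 20.3% of protein-coding genes. Rbf, at a pooled signal of 108 before division, was at the margin. Divided so, its signal passes 139, the lowest of the original list, but not the new cut. Embryos of mixed sex carry fewer X copies than autosomes, and the part of X copy number in the X count was not tested beyond this division. The part of TSS number was not tested either.

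For the 21 unbound genes the distance from a TSS to the nearest IDR summit had a median of 5408 bp, from 623 bp at Cdk4 to 86363 bp at Cdk2. At PCNA it was 1098 bp, at Mcm3 1103 bp and at Cdk1 1811 bp.

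Words of known promoter elements were searched on both strands in windows from 250 bp before to 50 bp after each TSS. The E2F words were TTTCCCGC, TTTCGCGC, TTTGCCGC and TTTGGCGC. They occurred in 9 of 17 windows of replication genes (52.9%) and in 3 of 36 windows of cell cycle control genes (8.33%), against 6.73% of 19607 windows of all protein-coding genes. By gene, 9 of the 14 replication genes held one (Orc1, Orc4, Orc5, Orc6, Mcm2, Mcm3, Mcm5, Mcm6 and dup), and 3 of the 18 others (CycB, CycE and stg). Of the 13 sites, 7 began between 3 and 36 bp downstream of the TSS, all in ORC and MCM genes. Over all protein-coding windows 14.6% of such matches lay downstream of the TSS, where the window is shorter. Of the 12 genes with an E2F word 5 were bound, against 30.8% of protein-coding genes that hold one.

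The sites of 7 genes, with 1 of the pair at CycE, are printed with 11 bases on each side, on the strand of the gene, with the word or its reverse complement in capitals, to show the element that most separates replication genes from the rest of the 32. They are chr2L:13829836-13829865 (Orc5, plus strand), chr3R:8264995-8265024 (Mcm2, plus), chrX:5323838-5323867 (Mcm3, plus), chr3R:10788545-10788574 (Mcm5, plus), chrX:6674389-6674418 (Mcm6, plus), chr2L:15746706-15746735 (CycE, minus) and chr3R:29255795-29255824 (stg, minus).
Orc5: agagggaataaTTTGGCGCcatttcaatgg
Mcm2: ttagcaaacatTTTCCCGCgcattttcgca
Mcm3: cacactacgctTTTCCCGCgaaaaaacttt
Mcm5: cggtaattttgGCGGCAAAatattcgcaca
Mcm6: gtcagaaaaagGCGCCAAAaccgagcaaag
CycE: ttgttgcatttTTTGGCGCttcggatccgc
stg: taaaagctcgcGCGCCAAAatcagtggcct

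Within 100 bp of the summit, 3 of the 14 IDR summits had an E2F word (Orc1, Orc4 and dup, 21.4%), against 5.06% of all IDR summits. All 3 are at replication genes, a class in which 9 of 14 genes held such a word, bound or not. Within 50 bp none of the 14 had one, against 2.36%, a share too small for a count of 14 to fall below. The words lay 54, 76 and 70 bp from those summits, and 291 and 314 bp from the CycE summit. At stg an E2F word lay 1 bp from a weak pooled candidate and 4122 bp from the nearest IDR summit. For the unbound Mcm6, Orc5 and Mcm2 the word lay 27, 40 and 69 bp from a pooled candidate. For the unbound Orc6, Mcm3 and Mcm5 it lay 1394, 1101 and 4211 bp from one.

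The DRE, TATCGATA, is the site of DREF, a factor first known from replication genes. It was in 8 of 53 windows of the 32 genes (15.1%), against 7.98% of all windows. The 7 genes were Orc2, Orc5, PCNA, Rbf2, CycA, Cdk2 and Cdk4. Only CycA of these was bound, 1 of 7, against 33.2% of all protein-coding genes with the element. None of the 14 summits had a DRE within 50 bp, against 2.79% of all IDR summits, and none within 100 bp, against 5.01%. Both shares are too small for a count of 14 to fall below. The upstream DRE of Orc2 and those of Cdk4 and PCNA lay 15, 18 and 28 bp from a pooled candidate. Those of Cdk2, Orc5 and Rbf2 lay 113, 120 and 7038 bp from one. The upstream sites of Orc2 and Orc5 and the sites of Rbf2 and Cdk2 show the element at promoters without an IDR peak: chr3R:13964673-13964702 (Orc2), chr2L:13829756-13829785 (Orc5), chr3R:15965394-15965423 (Rbf2) and chr3R:20735551-20735580 (Cdk2), all on the plus strand with the element in capitals.
Orc2: taatttaaattTATCGATAacgtatgcaat
Orc5: ttatttcgttaTATCGATAtttttcgattg
Rbf2: taagtatcagcTATCGATAagccagctaaa
Cdk2: taaggaattctTATCGATAtgtggcgctgc

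Core promoter motif 1, GGTCACACT, was in 6 of 53 windows (11.3%), against 5.23% of all windows. The genes were Orc5, Mcm3, Mcm10, CycB, CycB3 and fzy, of which CycB and CycB3 were bound, 2 of 6, against 35.0% of all genes with it. The word lay 37 bp from the CycB3 summit, the only one of the 14 with it within 50 bp, against 2.11% of all IDR summits. The shorter word CGATA, which is contained in the DRE, was within 50 bp of 5 of the 14 summits (Orc4, E2f2, Dp, CycB and CycE), against 20.2%. Within 100 bp it was at the same 5 (35.7%), against 33.9%, so the difference was small there. Counting within 50 bp, the E-box CAGCTG was near a dup and a Dp summit (7.19% of all), GAGAGAG near that of dap (3.11%) and TATAAA near that of CycE (11.2%). The other E-box, CACGTG, was near none (3.22%). In all, 8 of the 14 summits had any of the searched words within 50 bp, against 42.0% of IDR summits.

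**Figure D5:**
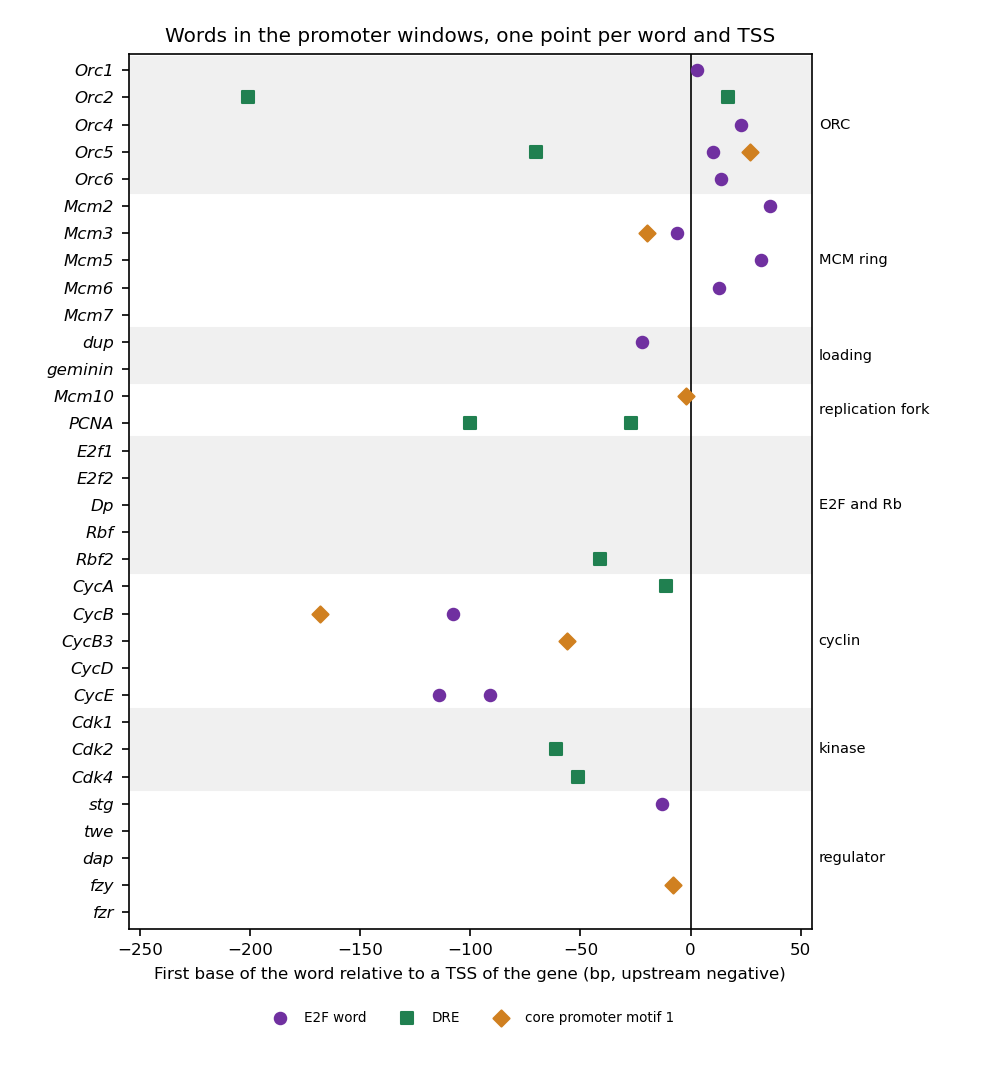
Position of the first base of each E2F word (circles), DRE (squares) and core promoter motif 1 (diamonds) relative to a TSS (bp, upstream negative), for the windows of the 32 genes. A word in the windows of both PCNA TSSs appears as 2 squares. E2F words of ORC and MCM ring genes gather at or just after the TSS.

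A further 96 genes of the same processes were read in the same way, from 7 lists by function. Of these 22 were bound (22.9%), near the 20.5% of all protein-coding genes, and 78 had a pooled candidate (81.2%), against 55.4%. The origin firing and helicase list, which includes Orc3, had 2 of 12. These were Cdc7 (401), a kinase that fires origins, and dpa (166), the MCM ring gene named above. The replisome and clamp loader list had 3 of 24, PolD2 (194) and PolA2 (148), subunits of DNA polymerases, and CG8142 (146). Of 6 genes for nucleotide supply 1 was bound, RnrS (232), a ribonucleotide reductase subunit. The list of the dREAM and Myb complex, which works with E2F, and of related genes had 2 of 8, mip120 and mip40, both at 179. Mitotic and checkpoint kinases and their partners had 8 of 19, led by mei-41 (217), the checkpoint kinase ATR, SAK (205), a centriole kinase, and Det (152). The list of the anaphase promoting complex and genes acting with it had 2 of 13, Cdc16 (292) and ida (143). Other cyclins and kinases had 4 of 14, led by CycG (306), CycT (230) and Cdk12 (205), the last from the summit it shares with SAK. Cdc7, CycG and Cdc16 exceeded Dp, and Cdc7 exceeded dup, the strongest of the 32 within 500 bp of a TSS.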

How the data were processed

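ChIP-seq peak lists of 2 replicates of CG7987-GFP embryos were used. Coordinates are those of dm6, per the labels, and sonication gave a size range of 200 to 800. Per the deposited readme texts, candidates were called on each replicate and on both pooled, each against 1 control alignment, and the IDR list was derived from these lists. No label or readme used here names the aligner, the caller or the threshold (not given in these sources). The signal of each peak is the deposited value of the authors' caller, on a scale not given. The deposited −log10 q-value is tied in all 4410 IDR peaks and was not used to rank. The IDR list was identical to the first 4410 pooled candidates by signal. No read counts were read, library depth is unknown, and exact Clopper-Pearson intervals at 95% cover counting over genes only.

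Genes and TSSs came from Ensembl 115 (BDGP 6.54, without transposable elements), with coordinates counted from 1, and sequences come from RefSeq. A single candidate of replicate 1 outside the arms was left out. A gene is bound if a summit lies within 500 bp of any of its TSSs, and 1 summit may count for several genes. Replicate peaks were matched by an overlap of at least 1 bp, taking the nearest summit. All 32 genes are named, with Orc3 and dpa, up to 3 bound genes of each further list by signal, and genes that place a summit. The members and lists were chosen with earlier results of these data known. Of the symbols in the 7 lists, 4 were matched through a synonym and 9 were not found or repeated another entry. With 1 group no comparison between groups and no test was made. Alternatives covered narrower and wider windows, only the 2205 strongest IDR peaks, either replicate by itself, all candidates, the TSS set, the nearest TSS, peak overlap, an X correction, the Drat cluster, the match between replicates and the word window. Versions were matplotlib 3.10.9, scipy 1.17.1, Python 3.11.15, pandas 2.3.3 and, for arrays, numpy 2.4.6. The assignment and word search were tested on simulated data.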

Additional observations from a re-analysis of the deposited data

How the results depend on the processing

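Against 11 bound genes, 3 of them replication and 8 cell cycle control genes, the count was 3 (2 and 1) in the 2205 strongest IDR peaks, where 10.9% of protein-coding genes were bound, and 27 (11 and 16) over all pooled candidates, where 55.4% were. The first keeps fewer peaks and the second more, by construction. Among the 2205 strongest peaks the order of the classes was also reversed, at 14.3% of replication genes and 5.56% of cell cycle control genes. The higher share of cell cycle control genes in the full list thus came from its weaker peaks. With a window of 250 bp 10 genes were bound, against 17.4% of protein-coding genes, and with 1000 bp 12, against 23.5%. The 5′-most TSS gave 10 (18.3%), the nearest TSS 11 (15.9%) and any base of the peak in the window 12 (21.7%). The X correction gave 10 (20.3%) and the list without the Drat cluster 10 (20.5%). These 7 gave 2 or 3 replication genes and 7 to 9 cell cycle control genes. Leaving out replicate 1 gave 10 bound genes (20.6% of protein-coding genes) and leaving out replicate 2 gave 9 (19.7%), with 3 and 2 replication genes and 7 cell cycle control genes in each case. Of the 14 summits, 11 matched both replicates when summits had to lie within 100 bp instead of peaks overlapping, and 11 instead of 8 had a searched word within 100 bp instead of 50. The share of all IDR summits with any word was not taken at 100 bp. For CGATA alone that share rose from 20.2% to 33.9% with the wider window, so the higher count cannot be read by itself. No paired analysis was possible because there is 1 group. The number of genes, and of replicates, limits every share given, and depth is unknown.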
